A study of Mus musculus with 12 samples.

Results

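The Bcl-2 family genes described here are 10 genes picked by name from the 13552 genes of the table: the pro-survival genes Bcl2l1, Bcl2 and Mcl1, the effectors Bax, Bak1 and Bok, and the BH3-only genes Bid, Bad, Bbc3 and Bcl2l11. All 10 were in the table. RNA was sequenced from whole hearts of 12 adult male C57BL/6J mice, 9 h after sham surgery or transverse aortic constriction (TAC), an operation that narrows the aorta so that the left ventricle has to work against a higher pressure. The 4 groups of 3 mice were sham-operated wild-type mice (WT sham), wild-type mice with TAC (WT TAC), and knock-in mice with either operation (KI sham and KI TAC). KI mice were homozygous for Bcl-xL S14A, in which serine 14 of Bcl-xL, the protein made from Bcl2l1, is replaced by alanine. The allele is a germline change carried by every cell, not only by cardiomyocytes, and was made in embryonic stem cells whose selection cassette was later removed with a CMV-Cre mouse. The line was backcrossed to C57BL/6J, while the WT mice were bought. Mice keep the numbers that the authors gave them. In GRCm38 the 4 members on which most results turn lie at chr2:152780668-152831728 (Bcl2l1, minus strand), chr2:128126038-128162547 (Bcl2l11, plus strand), chr1:106538178-106714274 (Bcl2, minus strand) and chr6:120891930-120916853 (Bid, minus strand).

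Proteins of the Bcl-2 family decide whether the outer mitochondrial membrane stays closed. The effectors form pores in it that release cytochrome c and start the caspases. The pro-survival proteins hold the effectors and the BH3-only proteins in check, and the BH3-only proteins relay stress signals by binding either side. Bcl-xL also sits at the endoplasmic reticulum, where it binds inositol trisphosphate receptors.

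The altered codon lies in exon 2 of the Bcl2l1 transcripts, on the minus strand at chr2:152829949-152829951 of GRCm38. The stretch below gives the first 25 codons of the reference coding sequence, from GENCODE M21 transcript Bcl2l1-201, with codon 14 in capitals, to show where the animals of both KI groups differ from WT.

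Bcl2l1 coding start: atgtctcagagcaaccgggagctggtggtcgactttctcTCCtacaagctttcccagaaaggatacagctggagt

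The knock-in change is T40G, counted from the A of the start codon, which turns TCC into GCC. The table holds 1 value per gene, so it does not separate the 2 alleles or the long and short splice forms of Bcl2l1. It therefore gives the abundance of Bcl2l1 RNA in each heart, and the genotype itself cannot be read from it.

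Values are in RPKM, that is, reads for each kilobase of exon after scaling by a heart's total of reads on genes. RPKM is a level per length, so levels of different genes can be set beside each other. The length is that of all annotated exons of a gene together, 4586 bases for Bcl2l1. Its transcripts Bcl2l1-201 and Bcl2l1-202 have 2417 and 2568 bases. Ranks and ratios between genes therefore depend on the length used. Read from the low values of the table, depth was 23650200 to 32455600 reads on genes per heart. The depth of KI TAC hearts (30298200 to 31677150) lay wholly above that of WT TAC hearts (25715380 to 29608760). The summed RPKM of 6 cardiomyocyte markers was 11400 to 21800 in every heart. Over all genes tested the median log2 fold change was -0.10 in KI TAC against KI sham and -0.12 in KI TAC against WT TAC. Median-ratio scaling moved these medians to 0.03 and 0.03. Of the genes past the threshold, 36.8% were higher in KI TAC hearts than in the KI sham hearts, against 55.0% after median-ratio scaling and 48.3% after quantile normalization. For KI TAC against WT TAC those shares were 26.4%, 58.6% and 46.0%, and for WT TAC against WT sham they were 60.2%, 50.2% and 48.1%. In whole-heart RNA, fewer cells of a type and less RNA per cell cannot be told apart.

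Mcl1, a short-lived pro-survival protein, was by far the most abundant of the 10 genes. Its mean over the 12 hearts was 160.6 RPKM, 73.6% of the summed RPKM of the 10 genes. Bcl2l1 came next at 17.2 RPKM, and Bbc3, which encodes Puma, had 11.6 RPKM. The effectors Bax and Bak1, which make the pores, had 9.5 and 6.87 RPKM. Bad, whose protein is held inactive by phosphorylation, and Bok, another effector, had 4.20 and 4.13 RPKM. Bcl2l11, which encodes Bim, had 1.89 RPKM, Bcl2 had 1.74 RPKM and Bid 0.460 RPKM. Within every heart Mcl1 was the highest of the 10 and Bid the lowest. From Bcl2l1 down to Bcl2, each pair of neighbours in this order changed places in at least 1 of the 12 hearts.

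Bcl2l1 was highest in the KI TAC hearts. It stood at 35.8, 37.0 and 24.5 RPKM in KI TAC mice 5, 6 and 7. KI sham mice 1, 2 and 3 had 6.67, 19.1 and 16.0 RPKM. WT sham mice 1, 2 and 3 had 7.04, 14.2 and 15.4 RPKM. WT TAC mice 7, 9 and 10 had 7.5, 17.2 and 6.59 RPKM. All 3 KI TAC hearts lay above all 9 others, while those 9 spread widely within each group and overlapped between groups. Means were 12.2 ± 4.52 (SD, n = 3) in WT sham, 10.4 ± 5.89 in WT TAC, 13.9 ± 6.47 in KI sham and 32.4 ± 6.89 in KI TAC hearts. On the log2(RPKM + 1) scale Bcl2l1 rose in KI TAC against KI sham by 1.26 (SE 0.397, limma adjusted p = 0.0354), or 1.36 relative to the median gene. Against WT TAC it was higher by 1.64 (SE 0.397, limma adjusted p = 0.0231), or 1.76 relative to the median gene.

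**Figure D1:**
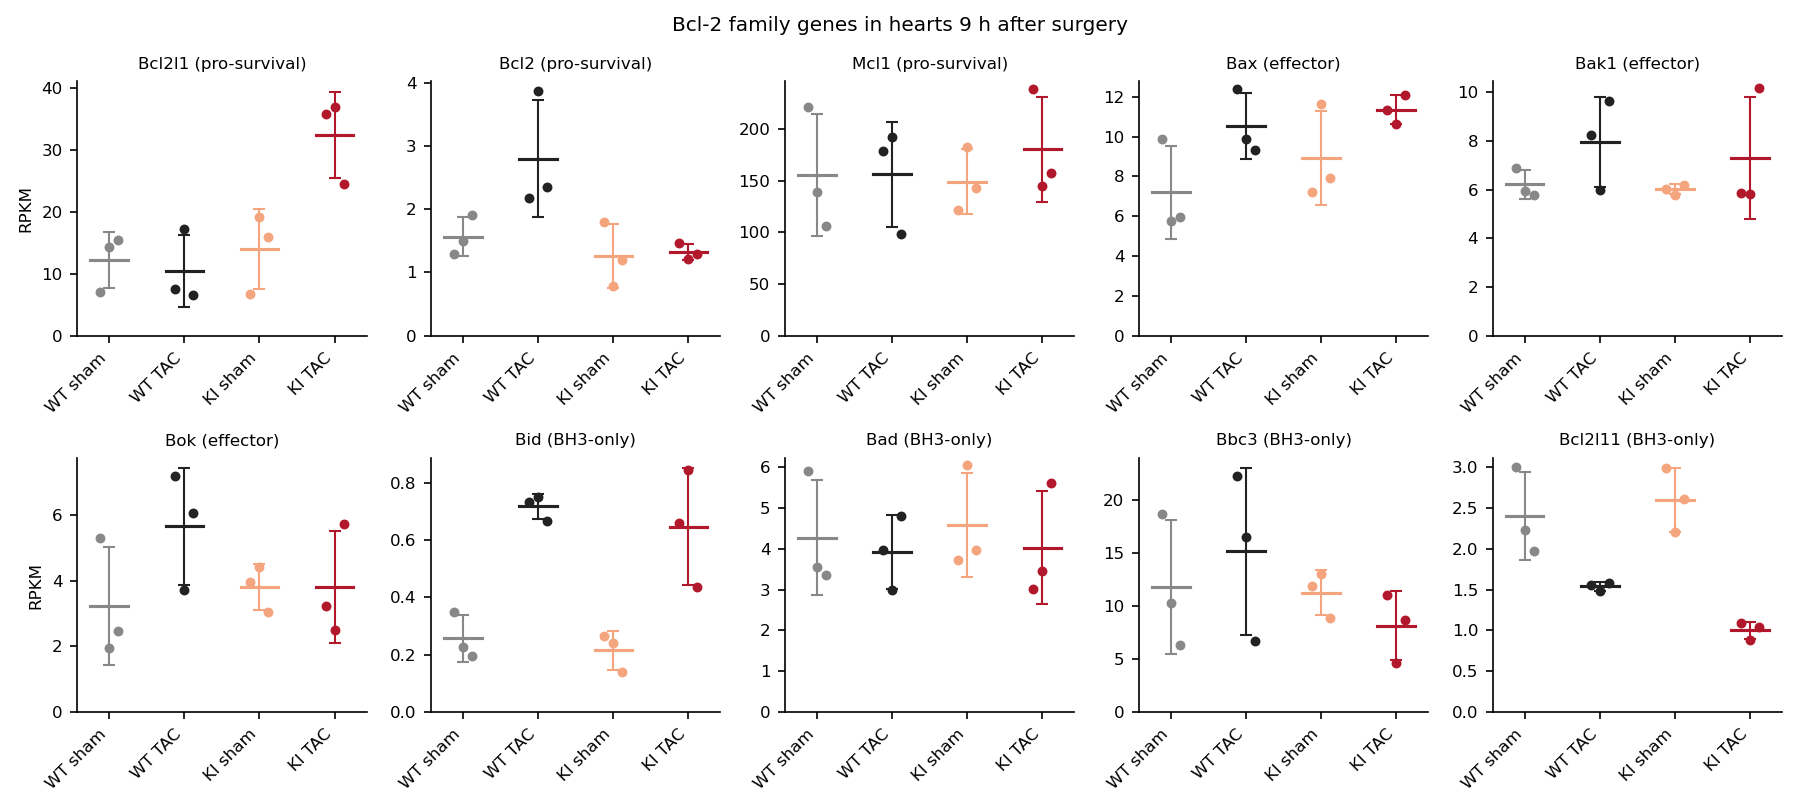
RPKM of each of the 10 genes (vertical axes start at 0) in each heart, by group. Points are mice, horizontal lines are group means and bars are the SD of 3 mice. The 3 KI TAC points of Bcl2l1 (24.5 to 37.0 RPKM) sit above the other 9, those of Bcl2l11 sit below them, and both TAC groups of Bid sit above both sham groups.

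Both calls were lost when certain single hearts were left out. Against KI sham, the adjusted p of Bcl2l1 was 0.0974 without KI TAC mouse 5, 0.102 without KI TAC mouse 6, 0.143 without KI sham mouse 1 and 0.0576 without KI sham mouse 3. Without KI sham mouse 1 the log2 fold change was 0.83, lower by more than 1.5 times. In the comparison with WT TAC the adjusted p was 0.0606 without KI TAC mouse 5, 0.0976 without KI TAC mouse 6, 0.0661 without WT TAC mouse 10, and 0.106 when WT TAC mouse 7 was left out. The sign stayed positive in all 12 refits of each comparison. In WT TAC against WT sham the log2 fold change of Bcl2l1 was -0.26, with a 95% interval of -1.11 to 0.59 (limma adjusted p = 0.706), and it moved from -0.65 without WT TAC mouse 9 to -0.02 without WT TAC mouse 10. In KI sham against WT sham it was 0.13, with an interval of -0.72 to 0.98. The difference between the genotypes in the response to TAC, the interaction term, was 1.51 with an interval of 0.31 to 2.72, and its unadjusted p of 0.0174 became an adjusted p of 0.248 over all genes. The response of Bcl2l1 to TAC was thus not shown to differ between genotypes.

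Of the 9 members that passed the filter of 1 RPKM in at least 3 hearts, 2 changed in KI TAC against KI sham, where 23.3% of the 11240 genes tested did. Bcl2l1 was the 1 member that was higher (8.57% of all genes were), and Bcl2l11 was the 1 that was lower (14.7% of all genes were). Of the same 9, 2 differed between KI TAC and WT TAC, against 11.0% of all genes. Bcl2l1 was higher there (2.92% of all genes) and Bcl2 was lower (8.13% of all genes). That background rested on single hearts: the 1242 genes called fell to 154 when WT TAC mouse 7 was left out, and to 770 when mouse 10 of that group was. They fell to 182 on leaving out KI TAC mouse 6 and to 629 on leaving out mouse 5, and a fit of only the groups compared gave 216. These shares of 9 genes are near the background or rest on 1 gene each. None of the 9 passed in WT TAC against WT sham, where 11.6% of all genes did (6.96% higher and 4.60% lower). limma-voom on recovered reads also called 0 of them. In the limma fit 4 had an unadjusted p under 0.05 (Bax, Bok, Bcl2l11 and Bcl2), as 3135 of the 11240 genes had. In KI sham against WT sham limma called none (0.0178% of all genes), limma-voom called 0 and 0 had an unadjusted p under 0.05 (37 of the 11240 genes). The interaction was past the threshold for none of the 9 in limma or limma-voom, nor for any other gene (0% of all genes). Its unadjusted p was under 0.05 for 1 member, Bcl2l1, and for 1668 of the 11240 genes tested. Without single hearts it passed for other genes, 183 without KI TAC mouse 7, 232 without WT TAC mouse 9 and 7 without WT TAC mouse 10, but for 0 members. Among the 9 the median log2 fold change was 0.06 in KI TAC against KI sham and 0.30 in WT TAC against WT sham, beside -0.10 and 0.04 for all genes.

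**Figure D2:**
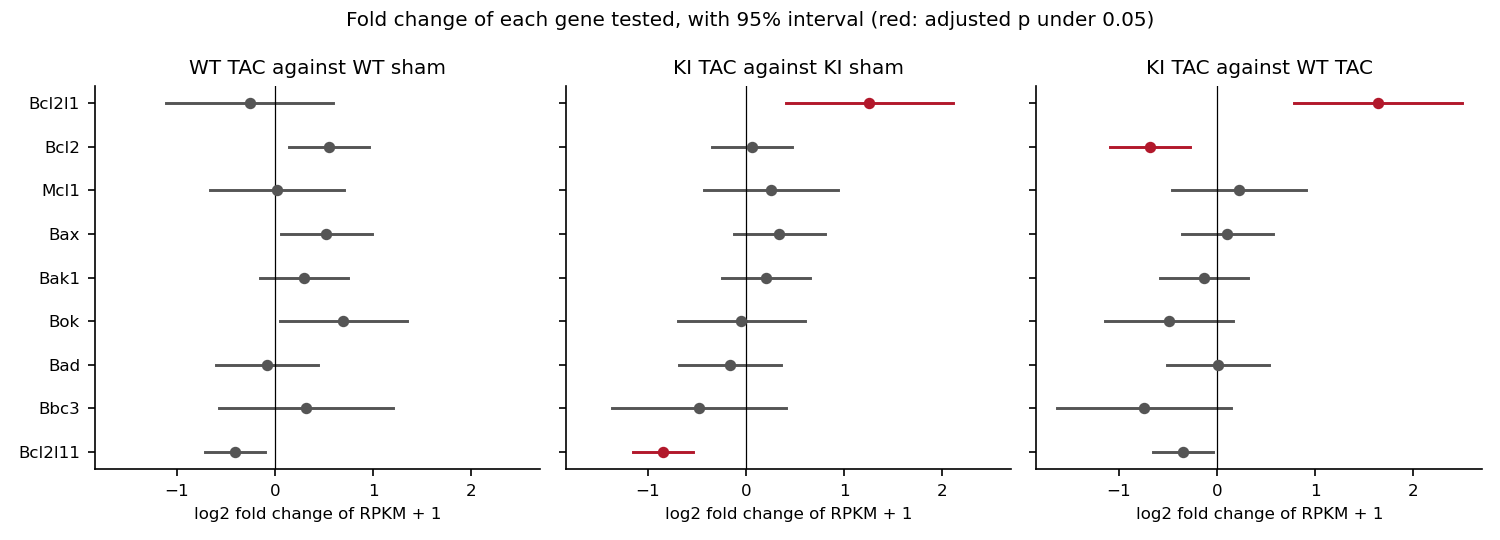
Fold change of RPKM + 1 on the log2 scale for the 9 genes tested (points) with 95% intervals (lines) in 3 comparisons. Red marks an adjusted p under 0.05. The WT panel holds no red point, and Bcl2l1 lies to the right of 0 in both panels with KI TAC hearts.

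Neither Mcl1 nor Bcl2 passed the threshold in KI TAC against KI sham. Mcl1 stood at 239.3, 144.6 and 158.0 RPKM in KI TAC hearts and at 121.8, 183.3 and 143.0 RPKM in KI sham hearts, so the groups overlapped. Its log2 fold change was 0.26 with a 95% interval of -0.43 to 0.94 (limma adjusted p = 0.59). Because Mcl1 was so abundant, Bcl2l1 was a small part of the pro-survival RNA in every heart. Its share of the summed RPKM of Bcl2l1, Bcl2 and Mcl1 was 15.5% ± 4.10 (SD, n = 3) in KI TAC hearts, 8.16% ± 2.65 in KI sham, 6.05% ± 2.03 in WT TAC and 8.23% ± 4.77 in WT sham hearts.

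Bcl2, the founding member of the family, was highest in WT TAC hearts, at 2.18, 3.87 and 2.35 RPKM in mice 7, 9 and 10. KI TAC hearts had 1.47, 1.22 and 1.30 RPKM and WT sham hearts 1.29, 1.5 and 1.90 RPKM. All 3 WT TAC hearts lay above all KI TAC and all WT sham hearts. Between KI TAC and WT TAC hearts Bcl2 differed by a log2 fold change of -0.68 (SE 0.191, limma adjusted p = 0.0376), but the adjusted p was 0.117 after quantile normalization, 0.0955 after median-ratio scaling and 0.0832 with only the groups compared. It was also above 0.05 without any 1 of KI TAC mice 5, 6 and 7, WT TAC mice 7 and 9, KI sham mouse 3 or WT sham mouse 2 (0.0532 to 0.13). The difference between WT TAC and WT sham was 0.55 (limma adjusted p = 0.0787), and that between KI TAC and KI sham was 0.06 with an interval of -0.35 to 0.47. The interaction of Bcl2 had an adjusted p of 0.411.

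Of the effectors with all mice in the fit, only Bax passed the threshold, and only in the average over genotypes. It stood at 12.4, 9.90 and 9.30 RPKM in WT TAC hearts and 9.87, 5.74 and 5.97 RPKM in WT sham hearts. In KI TAC hearts it had 11.3, 10.6 and 12.1 RPKM and in KI sham hearts 7.22, 11.6 and 7.92 RPKM. In both genotypes 1 sham heart overlapped the TAC hearts. Averaged over genotypes, Bax rose after TAC by a log2 fold change of 0.43 (limma adjusted p = 0.0459), where 31.1% of all genes changed and 14.1% were higher. In WT TAC against WT sham the log2 fold change of Bax was 0.52 (limma adjusted p = 0.135), and without WT sham mouse 1 the adjusted p was 0.047. The averaged call was lost in limma-voom (adjusted p = 0.0538, or 0.0563 over genes with at least 10 reads in every heart) and in 9 of 12 fits without 1 mouse (KI TAC mouse 5, 6 or 7, KI sham mouse 1 or 3, WT TAC mouse 7 or 9, WT sham mouse 2 or 3). Bak1, the other main pore former, ranged from 5.78 to 10.2 RPKM and Bok from 1.95 to 7.21 RPKM. The highest Bak1 values were in KI TAC mouse 7 (10.2 RPKM) and WT TAC mouse 10 (9.64 RPKM), and neither gene passed the threshold in any of the 6 comparisons. Bok had 7.21, 3.71 and 6.08 RPKM in WT TAC and 5.29, 1.95 and 2.47 RPKM in WT sham hearts. Its log2 fold change of 0.70 there had an adjusted p of 0.15, and without WT sham mouse 1 the adjusted p was 0.0458.

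Bcl2l11 fell after TAC. Bim, its product, binds all the pro-survival proteins. The gene stood at 1.08, 0.885 and 1.04 RPKM in KI TAC mice 5, 6 and 7 and at 2.99, 2.2 and 2.61 RPKM in KI sham mice 1, 2 and 3. In WT TAC mice 7, 9 and 10 it had 1.55, 1.48 and 1.58 RPKM, and in WT sham mice 1, 2 and 3 it had 3.00, 2.23 and 1.97 RPKM. Each TAC group lay wholly below its sham group, and the KI TAC hearts lay wholly below the WT TAC hearts. Against KI sham the fall was -0.84 on the log2(RPKM + 1) scale (SE 0.142, limma adjusted p = 0.00118), or -0.74 relative to the median gene. It held in all 12 fits without 1 mouse and in all 9 other settings. A pseudocount of 1 shrinks the change of a gene at this level, and on recovered reads limma-voom gave -1.36 with an interval of -1.82 to -0.91. Averaged over genotypes the change was -0.63 (limma adjusted p = 0.000462), where 17.0% of all genes were lower. In WT hearts alone it was -0.41 (limma adjusted p = 0.0763), with an adjusted p of 0.0458 after median-ratio scaling and 0.0305 after quantile normalization. Between KI TAC and WT TAC the difference of -0.34 did not pass (adjusted p = 0.124), nor did the interaction of -0.43 (adjusted p = 0.337).

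Bid, the substrate through which caspase-8 reaches the mitochondria, rose after TAC in both genotypes. It was the least abundant of the 10 genes and did not pass the filter, with 16 to 95 reads per heart. WT TAC mice 7, 9 and 10 had 0.734, 0.752 and 0.669 RPKM, and WT sham mice 1, 2 and 3 had 0.351, 0.226 and 0.196 RPKM. KI TAC mice 5, 6 and 7 had 0.660, 0.845 and 0.438 RPKM, and KI sham mice 1, 2 and 3 had 0.265, 0.243 and 0.139 RPKM. All 6 TAC hearts lay above all 6 sham hearts. The ratio of mean RPKM was 2.79 in WT and 3.00 in KI hearts. In the fit without a filter (13552 genes) the log2(RPKM + 1) differences were 0.45 in WT (limma adjusted p = 0.0102), where 6.86% of all genes were higher, and 0.43 in KI hearts (limma adjusted p = 0.0068), where 7.80% were. limma-voom on genes with at least 10 reads in every heart gave 1.49 (adjusted p = 0.0162) and 1.58 (adjusted p = 0.00614) on the log2 scale of reads. Without WT sham mouse 3 the WT call had an adjusted p of 0.0502, and the KI call kept an adjusted p of at most 0.042 in all 12 such fits. The interaction was -0.02 (adjusted p = 0.955). Bid overlaps 2 annotated genes on the other strand, Bcl2l13 among them, and Bcl2, Bak1 and Bad also overlap a gene there. On the same strand Bid overlaps Gm44260, Bax overlaps Gm45808, and Bcl2 overlaps Mir3473f and Gm37053. The strand setting of the read counting is not given in the sources used here.

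The other BH3-only genes did not pass the threshold in any comparison. Bbc3 stood at 11.1, 4.68 and 8.72 RPKM in KI TAC hearts and at 22.3, 16.6 and 6.67 RPKM in WT TAC hearts, and the groups overlapped. Its log2 fold change of -0.74 between them had a wide interval, -1.63 to 0.14. Bad ranged from 3.00 to 6.05 RPKM over the 12 hearts. In KI TAC against KI sham its difference was -0.16 with an interval of -0.68 to 0.35.

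**Figure D3:**
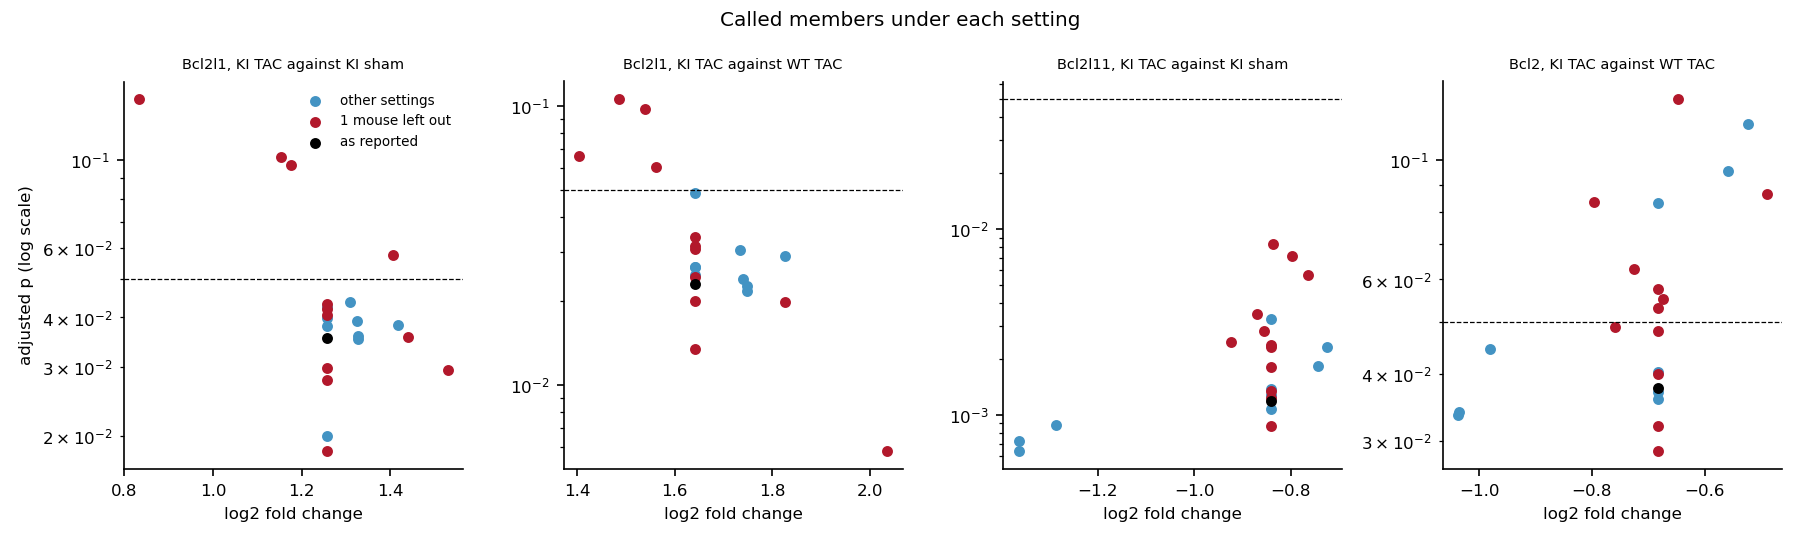
Log2 fold change (horizontal) and adjusted p (vertical, log scale) of 4 called differences as reported (black), with 1 mouse left out (red) and under other settings (blue). The dashed line is an adjusted p of 0.05. All points of Bcl2l11 lie below it, while 4 of the red points of each Bcl2l1 panel lie above it.

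To set Bcl2l1 against its relatives, the difference of log2(RPKM + 1) between Bcl2l1 and each of the 9 others was taken within each heart. On this scale the mean difference was higher for all 9 relatives in KI TAC against KI sham, by 0.82 (Bid) to 2.10 (Bcl2l11). For 6 of the 9 pairs every KI TAC heart lay above every KI sham heart (Mcl1, Bax, Bid, Bad, Bbc3 and Bcl2l11). For Bcl2, Bak1 and Bok the groups overlapped. The pseudocount decided the pair with Bid, whose level is below 1 RPKM. As a plain ratio of RPKM, Bcl2l1 stood at 54.2, 43.8 and 56.0 times Bid in KI TAC and at 25.2, 78.7 and 115.0 times in KI sham hearts, so these groups overlapped, and the mean log2 ratio changed by -0.26. The other 8 relatives kept their direction without a pseudocount, and 5 pairs were then without overlap. In KI TAC against WT TAC the gain was 1.41 (Mcl1) to 2.39 (Bbc3), again without overlap for 6 of the 9 (Bcl2, Mcl1, Bax, Bid, Bbc3 and Bcl2l11). With 3 mice against 3 the two-sided exact permutation test cannot go below 0.1, which it reached for those pairs. Set against every other gene tested in the same way, Bcl2l1 gained without overlap on 72.1% of 11239 genes in KI TAC against KI sham and on 82.3% in KI TAC against WT TAC. The 6 of 9 relatives are no more than those shares, so the gain was not particular to the family.

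**Figure D4:**
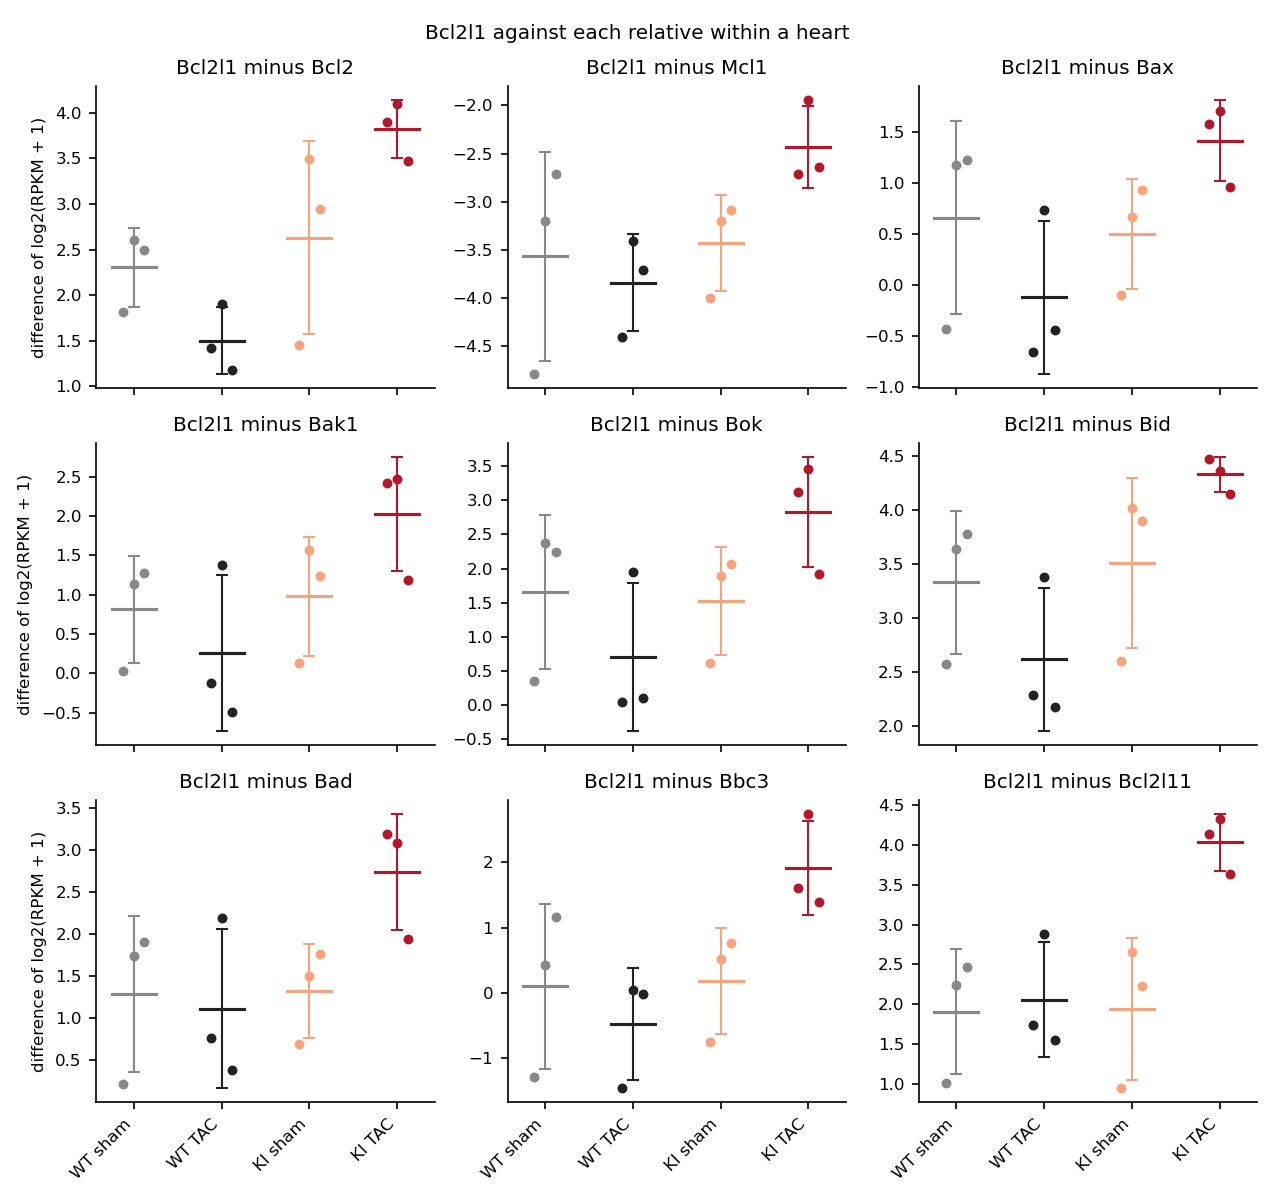
Difference of log2(RPKM + 1) between Bcl2l1 and each of its 9 relatives within each heart, by group. Points are mice, lines are means and bars are the SD of 3 mice. On this scale every panel has its highest mean in KI TAC hearts, and the KI TAC points clear the KI sham points for 6 of the 9 relatives, of which Bid overlaps without a pseudocount.

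In KI TAC against KI sham the widest separation was from Bcl2l11. Bcl2l1 minus Bcl2l11 was 4.14, 4.33 and 3.64 in KI TAC hearts and 0.94, 2.65 and 2.23 in KI sham hearts. As a ratio of RPKM, Bcl2l1 stood at 32.8 ± 9.11 times Bcl2l11 (SD, n = 3) in KI TAC and at 5.67 ± 3.24 times in KI sham hearts. The ratio to Bax was 2.89 ± 0.766 in KI TAC, 1.53 ± 0.554 in KI sham, 1.02 ± 0.626 in WT TAC and 1.92 ± 1.05 in WT sham hearts. With surgery labels permuted within genotype over all 12 mice, the exact two-sided p was 0.05 for Bcl2l11 and 0.22 to 0.87 for the other 8 pairs, of 9 pairs in all and without adjustment. In WT TAC against WT sham none of the 9 pairs was without overlap (exact permutation p from 0.2 to 1.0), but without a pseudocount the pair with Bcl2 was (-1.09). Without WT sham mouse 1, 6 pairs were, and without WT TAC mouse 9, 5 pairs were, with Bcl2l1 losing ground in each.

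Levels of 10 other genes followed Bcl2l1 most closely over the 12 hearts, with Pearson's r of log2(RPKM + 1) from 0.907 to 0.955. In descending order these were Fkbp5, Adgrg1, Lrrc8a, Timp3, Ifi205, Map3k6, Pparg, Tinagl1, Ly6c1 and Rin3. Over the 9 hearts that are not KI TAC, r with Bcl2l1 was 0.763 (Pparg) to 0.959 (Rin3). Fkbp5, a co-chaperone of steroid receptors, had 16.4, 27.5 and 14.7 RPKM in KI TAC hearts. It had 1.07, 4.77 and 4.42 RPKM in KI sham mice 1, 2 and 3, low in the same heart as Bcl2l1. In WT TAC mice 7, 9 and 10 it had 1.31, 9.29 and 2.38 RPKM, high in mouse 9 as Bcl2l1 was. The 10 were picked out of 11240 genes for this likeness, and the points share groups and libraries. Among the relatives, r to Bcl2l1 ran from -0.67 (Bcl2l11) to 0.31 (Mcl1).

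**Figure D5:**
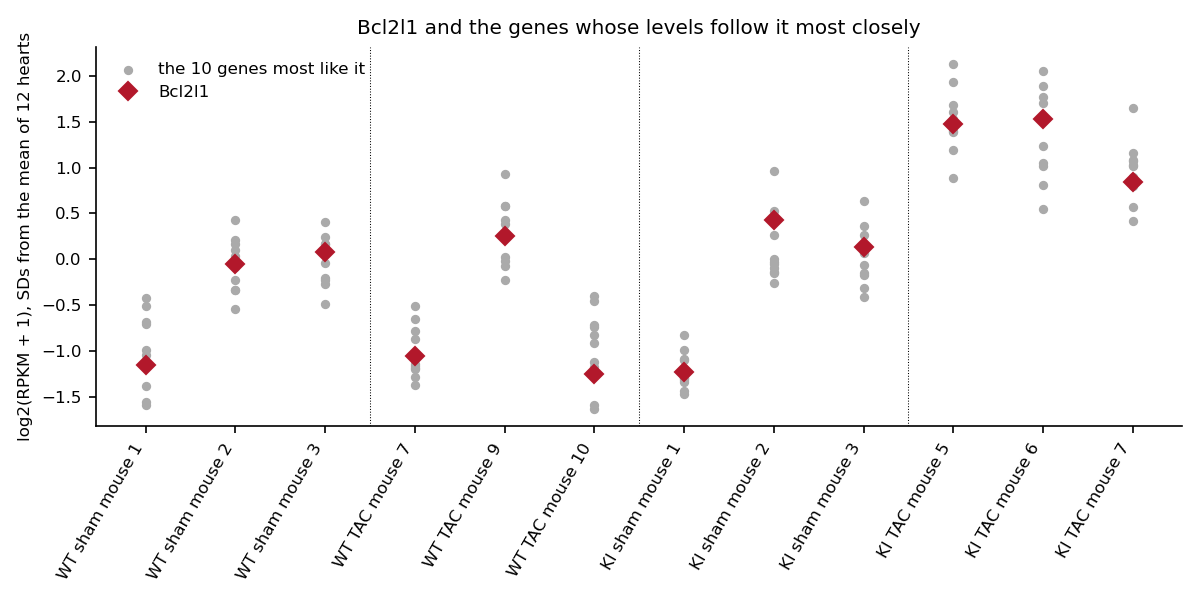
Level of Bcl2l1 (red diamonds) and of the 10 genes most like it (grey points) in each of the 12 hearts, in SDs of log2(RPKM + 1) from the mean of that gene. Dotted lines part the groups. WT sham mouse 1, WT TAC mice 7 and 10 and KI sham mouse 1 are low in Bcl2l1, and the grey points follow.

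Around the family, fixed lists of related genes were described by their counts. Of 15 other Bcl-2 family genes, 7 were in the table and tested. Bcl2l12 alone fell in KI TAC against KI sham (log2 fold change -0.77, limma adjusted p = 0.0145), where 14.7% of all genes fell. None of the 7 changed in WT hearts (11.6% of all genes) or differed between the TAC groups (11.0% of all genes). Bcl2l2, which encodes the pro-survival Bcl-w, ranged from 6.41 to 10.9 RPKM, and its log2 fold change in KI hearts was 0.12 (limma adjusted p = 0.69).

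Of 16 genes of the apoptosome, caspases and inhibitors of apoptosis, 14 were tested. Casp8, the initiator caspase that cleaves Bid, rose in both genotypes, by 0.73 in WT (limma adjusted p = 0.0174) and by 0.66 in KI hearts (limma adjusted p = 0.0163). Birc3, an inhibitor of apoptosis, rose in KI hearts by 0.70 (limma adjusted p = 0.00531). Casp9, the initiator caspase of the mitochondrial route, fell in KI hearts (-0.67, limma adjusted p = 0.024). The KI TAC hearts also had less of it than the WT TAC hearts (-0.64, limma adjusted p = 0.0498), a call lost under both scalings (0.0527 and 0.0606). No other gene of this list changed in these 3 comparisons. Over all genes, 6.96% rose in WT hearts, and 8.57% rose and 14.7% fell in KI hearts. Between the TAC groups 8.13% of all genes were lower in KI hearts.

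Of 11 membrane partners, only Itpr1, an inositol trisphosphate receptor, fell in KI TAC against KI sham (-0.60, limma adjusted p = 0.031), where 14.7% of all genes fell. It alone was also below the WT TAC level (-0.68, limma adjusted p = 0.0331), where 8.13% of all genes were lower. Median-ratio scaling took both of its adjusted p values past 0.05 (0.0612 and 0.0613). Itpr2, the main such receptor of cardiomyocytes, had means of 2.35, 2.05, 2.37 and 2.25 RPKM in WT sham, WT TAC, KI sham then KI TAC hearts, with a log2 fold change in KI hearts of -0.04 (limma adjusted p = 0.888). Of 17 kinases and ligases that act on the family, only Akt2 fell in KI hearts (-0.56, limma adjusted p = 0.0163), where 14.7% of all genes fell. That call was lost under median-ratio scaling (0.0817). None of the 17 changed in WT hearts (11.6% of all genes) or between the TAC groups (11.0% of all genes). Stk4, which encodes the kinase Mst1, had means of 2.62, 3.65, 2.59 and 2.89 RPKM in WT sham, WT TAC, KI sham then KI TAC hearts, with an adjusted p of 0.189 in WT and 0.669 in KI hearts.

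Of 17 transcription factors tested that are known to act on Bcl-2 family genes, 3 rose in WT hearts (6.96% of all genes did), and in KI hearts 4 rose (8.57% of all genes) and 3 fell (14.7% of all genes). Stat3, an activator of Bcl2l1 in other settings, went from a mean of 19.7 to 42.0 RPKM in WT hearts (log2 fold change 1.05, limma adjusted p = 0.0034) and from 21.8 to 41.5 RPKM in KI hearts (0.89, limma adjusted p = 0.00436). Its log2 fold change between the TAC groups was -0.04 (limma adjusted p = 0.901). Myc rose in both genotypes and differed between the TAC groups, with means of 47.9 RPKM in KI and 15.3 RPKM in WT hearts (1.5, limma adjusted p = 0.0353). KI TAC mice 5, 6 and 7 had 86.8, 32.4 and 24.5 RPKM of it. WT TAC mice 7, 9 and 10 had 15.4, 23.0 and 7.43 RPKM. Atf4, a factor of the integrated stress response, had means of 64.8 RPKM in KI TAC and 28.8 RPKM in WT TAC hearts (1.10, limma adjusted p = 0.0208). Hif1a rose in WT hearts by 1.19 (limma adjusted p = 0.00892) and in KI hearts by 0.75 (limma adjusted p = 0.045), the latter value being added after it was seen. Foxo3, an activator of Bcl2l11 and Bbc3 in other settings, fell in KI hearts from a mean of 104.0 to 27.7 RPKM (-1.82, limma adjusted p = 0.00133). Stat5a also fell there (-1.41, limma adjusted p = 0.00111). After TAC in WT hearts both genes changed in the same direction without passing the threshold. These log2 fold changes were -0.94 for Foxo3 (limma adjusted p = 0.0693) and -0.58 for Stat5a (limma adjusted p = 0.129). The interaction did not pass for Foxo3 (-0.88, limma adjusted p = 0.368) or for Stat5a (-0.84, limma adjusted p = 0.273). Between KI TAC and WT TAC, where 2 factors were higher (2.92% of all genes) and 4 lower (8.13% of all genes), Gata4 had a log2 fold change of -1.15 (limma adjusted p = 0.0276) and Foxo3 one of -1.04 (limma adjusted p = 0.0484, lost under both scalings at 0.118 and 0.0718).

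Some markers of infiltrating cells changed after surgery too. Of 5 macrophage and monocyte markers 3 rose in WT hearts (6.96% of all genes did). In KI hearts 1 of them fell (14.7% of all genes), and 2 were lower in KI TAC than WT TAC hearts (8.13% of all genes). The summed RPKM of 3 neutrophil markers (of 5 listed) was 0.395 to 1.27 in sham hearts and 3.69 to 20.3 in TAC hearts. These 3 reached the filter through TAC hearts alone, so their calls are not counted. All 6 macrophage and monocyte markers summed to 148.0 to 226.0 RPKM in WT TAC, 99.5 to 126.0 in KI TAC, 80.1 to 133.0 in WT sham and 86.8 to 109.0 in KI sham hearts. None of the endothelial (5), fibroblast (5), smooth muscle and pericyte (4) or red cell (5) markers passed the threshold after surgery in either genotype alone or between the TAC groups. In the average over genotypes, where Bax and Bcl2l11 were called, Pdgfra of the fibroblast list (log2 fold change 0.41, limma adjusted p = 0.0357) and Acta2 of the smooth muscle list (0.76, limma adjusted p = 0.0464) rose. In the same average the red cell markers Hba-a1 (-0.69, limma adjusted p = 0.0455) and Hba-a2 (-0.71, limma adjusted p = 0.0476) fell, as did 2 cardiomyocyte markers, while 2 macrophage markers rose and no endothelial marker passed. Of all genes, 14.1% were higher and 17.0% lower in this average. Of 6 cardiomyocyte markers, 1 fell in WT hearts (4.60% of all genes did) and 1 fell in KI hearts (14.7% of all genes). Between the TAC groups 1 of the 6 was higher in KI hearts (2.92% of all genes). The part of these cells in the changes of Bcl2l1, Bcl2l11, Bcl2, Bax and Bid was not tested.

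Promoter windows of the family were searched for fixed motifs on both strands, 250 bases before to 50 after each start in RefSeq (GRCm38.p6), which gave 16 windows for all 10 genes. Below are the 250 bases before the most upstream start of Bcl2l1 and before the first start of Bcl2l11, the 2 members that moved apart most in KI TAC against KI sham. Capitals mark matches on either strand to the NF-kB letters, GGG and CC parted by any 5 bases.

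Bcl2l1, chr2:152831729-152831978, minus strand: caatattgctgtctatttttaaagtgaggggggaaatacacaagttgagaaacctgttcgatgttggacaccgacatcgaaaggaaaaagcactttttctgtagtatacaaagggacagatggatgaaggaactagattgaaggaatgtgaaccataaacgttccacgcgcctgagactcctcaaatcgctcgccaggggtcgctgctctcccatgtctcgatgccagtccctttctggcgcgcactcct
Bcl2l11, chr2:128125788-128126037, plus strand: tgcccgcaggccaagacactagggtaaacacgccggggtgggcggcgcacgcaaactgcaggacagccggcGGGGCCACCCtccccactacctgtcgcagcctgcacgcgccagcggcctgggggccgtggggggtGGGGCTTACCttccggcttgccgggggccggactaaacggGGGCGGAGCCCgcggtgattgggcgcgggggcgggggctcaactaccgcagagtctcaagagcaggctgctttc

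The Bcl2l1 stretch holds no match, and 2 matches stand in another of its 3 windows. The NF-kB letters stood in 14 of the 16 family windows and in 50.8% of all 32851 windows. They overlap in part with the GC box GGGCGG, which was in 11 family windows and 35.7% of all windows. The STAT letters TTCNNNGAA were in none of the 16 (8.30% of all windows) and the AP-1 letters TGANTCA in none (7.81%). CRE (TGACGT) was in the Bcl2 window (7.51% of all), the heat shock letters GAANNTTC in 1 Bad window (7.86%), and the E-box CACGTG in 1 Bax and 1 Bbc3 window (7.15%). These are matches of letters in a short window and say nothing of binding.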

How the data were processed

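Per the submitters' processing notes and the study's methods, the authors trimmed reads with Trimmomatic 0.39, mapped them with HISAT2 2.2.1 to GRCm38 and counted them with HTSeq 0.6.1. Libraries were poly(A)-selected and directional. Paired-end libraries but single-read sequencing are named in the methods, as are 2 annotation releases. The deposited values are RPKM: the unit is not named, but each heart's values times GENCODE M21 exon length summed to 997559 to 1002031. Whole reads were recovered for 95.9% to 98.2% of low values (within 0.1 read). A further scaling by the authors was not seen.

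Samples were grouped by their labels for genotype and treatment. From the deposited RPKM, log2(RPKM + 1) was fitted with limma 3.58.1 in R 4.3.3 (trend) to 4 groups of 3 mice, for the 11240 genes reaching 1 RPKM in 3 mice or more. Calls needed an adjusted p (Benjamini-Hochberg, over all genes tested) under 0.05. Pairs of genes were compared with exact permutation tests. The fit was also run on simulated reads, and no result here rests on that run. A count test was not the main test, since the file holds RPKM. Deviations of same-numbered sham mice had correlations of -0.23, -0.30 and 0.44, and the main fit did not pair them. With 3 mice a group these correlations are too few to decide whether the numbers mark a pairing. The study's reporting summary mentions separate surgical cohorts and shared cages, but not which of these hearts shared a cage or surgery day. The limma p-values rest on the variation between these mice, pooled over the 4 groups and moderated with that of all genes.

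The members, gene lists and tests were chosen with earlier results of these data known. Genes most like a member by Pearson's r were named, 10 for Bcl2l1 and 3 each for Bcl2, Bax, Bid and Bcl2l11. For the other members only the closest gene was named, and predicted genes were passed over. Also named were all members, at most 4 changed genes per list and comparison (largest change first), Itpr2, Stk4 and Stat3. Another gene of that rule is not reported here. Alternatives were a pseudocount of 0.1, no filter, 10 reads in every mouse (12982 genes), quantile normalization, median-ratio scaling, limma-voom, only the groups compared, a robust prior and leaving out each mouse. limma-voom with 10 reads in every mouse, the fits for Bid and the pair ratios without a pseudocount were added after seeing the data. Sequences came from GENCODE M21 and RefSeq. Tables and plots were made in Python with pandas and matplotlib.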

Additional observations from a re-analysis of the deposited data

How the results depend on the processing

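Counts of members past the threshold moved as follows. In WT TAC against WT sham the count was 0 and became 1 with no filter, with 10 reads in every mouse and with limma-voom on those genes (Bid each time), and 1 with median-ratio scaling and quantile normalization (Bcl2l11 each time). Leaving out each mouse gave 0 to 2. In KI TAC against KI sham the count of 2 became 1 to 2 when a mouse was left out, and it stayed within 1.5 times elsewhere, with Bid as the third call where no RPKM filter was used. In KI TAC against WT TAC the count of 2 became 1 with median-ratio scaling, quantile normalization or only the groups compared, and 0 to 2 without 1 mouse. The average over genotypes gave 2 (Bax and Bcl2l11), 3 with no filter or with 10 reads in every mouse (Bid added), 1 with limma-voom on recovered reads, and 1 to 2 without 1 mouse. The interaction gave 0 in every setting, as did the comparison of the sham groups. The pairs without overlap in WT TAC against WT sham became 1 with a pseudocount of 0.1 or none and 0 to 6 without 1 mouse. The cause of these moves was not tested, apart from Bid, which the filter removes.

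Over all genes, leaving out a mouse gave 582 to 1505 calls (1299 with all mice) in WT TAC against WT sham, lowest without WT TAC mouse 7 and over 1.5 times lower also without each WT sham mouse (858, 655 and 682 without mice 1, 2 and 3), and 1448 to 2967 (2620) in KI TAC against KI sham, lowest without KI sham mouse 3.

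Signs turned for these fold changes, printed or plotted, none past the threshold: Bok in KI TAC against KI sham (-0.05) was 0.082 with median-ratio scaling, 0.054 with quantile normalization and -0.315 to 0.158 without 1 mouse. Without 1 mouse, ranges crossed 0 for Bad in WT (-0.209 to 0.126) and KI hearts (-0.376 to 0.018), Bcl2 in KI hearts (-0.094 to 0.229), Bak1 in KI hearts (-0.033 to 0.321), Mcl1 between TAC groups (-0.075 to 0.407) and in WT hearts (-0.226 to 0.318), Bbc3 in WT hearts (-0.03 to 0.779), Bak1 (-0.367 to 0.003) and Bad (-0.2 to 0.158) between TAC groups, and Bcl2l1 between sham groups (-0.198 to 0.549). With median-ratio scaling Mcl1 in WT hearts was -0.027 and Bak1 between TAC groups 0.042, and the interaction of Bid was 0.091 with limma-voom. Without 1 mouse the interaction of Bid in the fit without a filter ran from -0.104 to 0.076. With the number in the titles as a replicate block, the sham comparison again gave 0 members, and 0 genes in all against 5 without the block. Whether the numbers mark a pairing could not be decided from the correlations given with the methods. With 3 mice a group, Bid (16 to 95 reads) is the member most limited by depth.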

Other observations

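Genes whose levels were most like each other member, by Pearson's r of log2(RPKM + 1) over the same 12 hearts, were chosen from all genes tested and share groups and libraries with it. Bcl2l11 was most like Colgalt2 (0.955), Hjv (0.954) and Mettl24 (0.953). Mettl24 had means of 1.58, 0.769, 1.72 and 0.440 RPKM in WT sham, WT TAC, KI sham then KI TAC hearts. Bid was most like Wdr75 (0.956), Rnft1 (0.949) and Nppb (0.944). Nppb, the gene of the natriuretic peptide BNP, had means of 154.0, 1210.0, 111.0 and 1630.0 RPKM in the same order. Bcl2 was most like Cux1 (0.923), Hipk2 (0.91) and Grk5 (0.907), and Grk5, a kinase of G protein-coupled receptors, had means of 5.72, 14.1, 5.23 and 5.23 RPKM.

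For the members that did not pass the threshold, Mcl1 was most like Hnrnpa0 (0.908), Bak1 most like Nsf (0.952), Bok most like Cybc1 (0.967), Bad most like Prkcsh (0.973) and Bbc3 most like Lemd2 (0.96). Bax was most like Wdr77 (0.924), Tbcc (0.913) and Prmt1 (0.905).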
